A study of Homo sapiens with 12 samples.

Results

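The 47 genes described here code for assembly factors of the large (60S) ribosomal subunit. They were chosen by name, from a list of symbols, and all 47 had a row among the 61163 genes of both count tables. Sequencing covered isolated nucleoli (the NO fraction) and everything else, the cytoplasmic-nuclear (CN) fraction, of HEK WT cells, which are unedited HEK293T, an established human embryonic kidney line that carries a viral large T antigen, and of HEK UL1 KO cells, which are HEK293T edited with CRISPR-Cas9 and a pair of guides to HNRNPUL1. Neither line was treated with a drug, and 3 biological replicates of each line and fraction gave 12 libraries of total RNA without removal of rRNA. The edited cells are described as 1 line, so an effect of the edited gene and any other difference between the lines cannot be told apart.

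The 60S subunit is put together in the nucleolus around the 28S, 5.8S and 5S rRNAs. Assembly factors bind the precursor in order, fold and cut it, modify its bases, dock the 5S particle, and leave before or after the particle is exported to the cytoplasm. Most of these factors act on the precursor for a short time and are absent from the finished ribosome. The libraries measured the mRNAs of these factors and not their proteins.

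The targeted gene, HNRNPUL1, was read at 15.3 ± 6.13 CPM (SD, n = 3) in the HEK WT NO libraries and at 3.83 ± 0.262 in those of HEK UL1 KO, and at 17.0 ± 1.41 and 4.80 ± 0.0582 CPM in CN. CPM, the counts as a share of the library's size, were computed on sizes scaled by TMM, edgeR's trimmed mean of M values, within each fraction, so they are set side by side only within a fraction. Total counts per library lay between 37141666 and 104040073, and the members took 0.0512 to 0.0737% of them. The U3 gene SNORD3A, a nucleolar RNA, was higher in NO than in CN of HEK WT by 4.67 on the log2 scale (edgeR's quasi-likelihood test, adjusted p = 0.000338). VIM, a gene this line expresses, was read at 31.7 ± 5.47 CPM in CN of HEK WT and at 11.4 ± 0.915 in CN of HEK UL1 KO. PAX2, NEFM and NEFL were also chosen to mark the line. In CN their log2 fold changes, HEK UL1 KO against HEK WT, were 0.76, -0.54 and 0.02 (edgeR's test, adjusted p = 0.0131, 0.037 and 0.891). HBB, ALB and CD3E, genes of other cell types, stayed at or under 0.337 CPM in all libraries. PTPRC, also a gene of another cell type, was read at 1.13 to 1.90 CPM in NO and at 0.0632 to 0.369 CPM in CN. It was called higher in NO than in CN of HEK WT (log2 fold change 2.46, edgeR's test, adjusted p = 0.00509).

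The 3 NO libraries of HEK WT differed from each other. The summed level of the 47 members was 862, 1000.25 and 456 CPM in them, whereas it was 452, 471 and 588 CPM in NO of HEK UL1 KO. The third HEK WT NO library thus lay within the range of the knockout libraries, and its TMM factor was 1.40, against 0.690 and 0.622 in the other two. As a share of all counts, without that scaling, the members took 0.0595, 0.0622 and 0.0637% in NO of HEK WT and 0.0604, 0.0512 and 0.0676% in NO of HEK UL1 KO, and these groups overlapped. The CN libraries were tighter. Their summed level was 732, 686 and 705 CPM in HEK WT and 555, 563 and 558 CPM in HEK UL1 KO.

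Per kilobase of merged exons (GENCODE release 44), the level of the members in CN of HEK WT ran from 0.251 CPM per kilobase for DDX51 to 47.5 for NPM1, nucleophosmin, the abundant nucleolar chaperone. NCL, nucleolin, followed at 22.8 and GNL3, nucleostemin, at 11.4 CPM per kilobase. NVL, NOC3L, NIFK and TEX10 came next, between 7.68 and 6.13 CPM per kilobase. NLE1, PPAN, SURF6 and RRS1 were low, between 0.301 and 0.458 CPM per kilobase. The annotation used for the counts was not named, so the counted stretches may differ from these exons and the order is approximate.

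In the CN fraction, the mRNAs of many 60S assembly factors were lower in the knockout line than in HEK WT. Of the 47 members, 22 fell, 3 rose and 22 did not pass the test (edgeR's quasi-likelihood test, adjusted p under 0.05 over 27234 genes). Among all genes tested, 22.3% were called lower and 15.6% higher. Among the 14878 protein-coding genes tested, 28.5% were called lower and 16.1% higher. The median log2 fold change of the members was -0.26, and that of all genes was 0.04. The knockout libraries lay below every HEK WT library for 28 members and above for 5, where 28.1% and 24.7% of all genes did so. All these values are relative to the other RNA of a library, so less of an mRNA and more of the other RNA in a cell cannot be told apart.

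The strongest fall was that of NMD3, the adaptor that carries the 60S precursor out of the nucleus to the export receptor (GRCh38.p14, chromosome 3 from 161221102 to 161253532, plus strand). NMD3 stood at 13.1, 12.9 and 13.3 CPM in CN of HEK WT and at 6.50, 6.43 and 5.80 CPM in CN of HEK UL1 KO. The groups did not overlap, and the log2 fold change was -1.07 ± 0.08 (SE, adjusted p = 4.27e-06). None of the other 3 late factors was called. EIF6, which keeps the 60S subunit from joining the 40S subunit, had a log2 fold change of 0.14 ± 0.18 (95% interval -0.26 to 0.53, adjusted p = 0.573), and its groups overlapped. MRTO4 and RSL24D1, which hold the places of the stalk protein and of RPL24 on the precursor, had values of 0.11 and 0.22 and were not called.

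**Figure D1:**
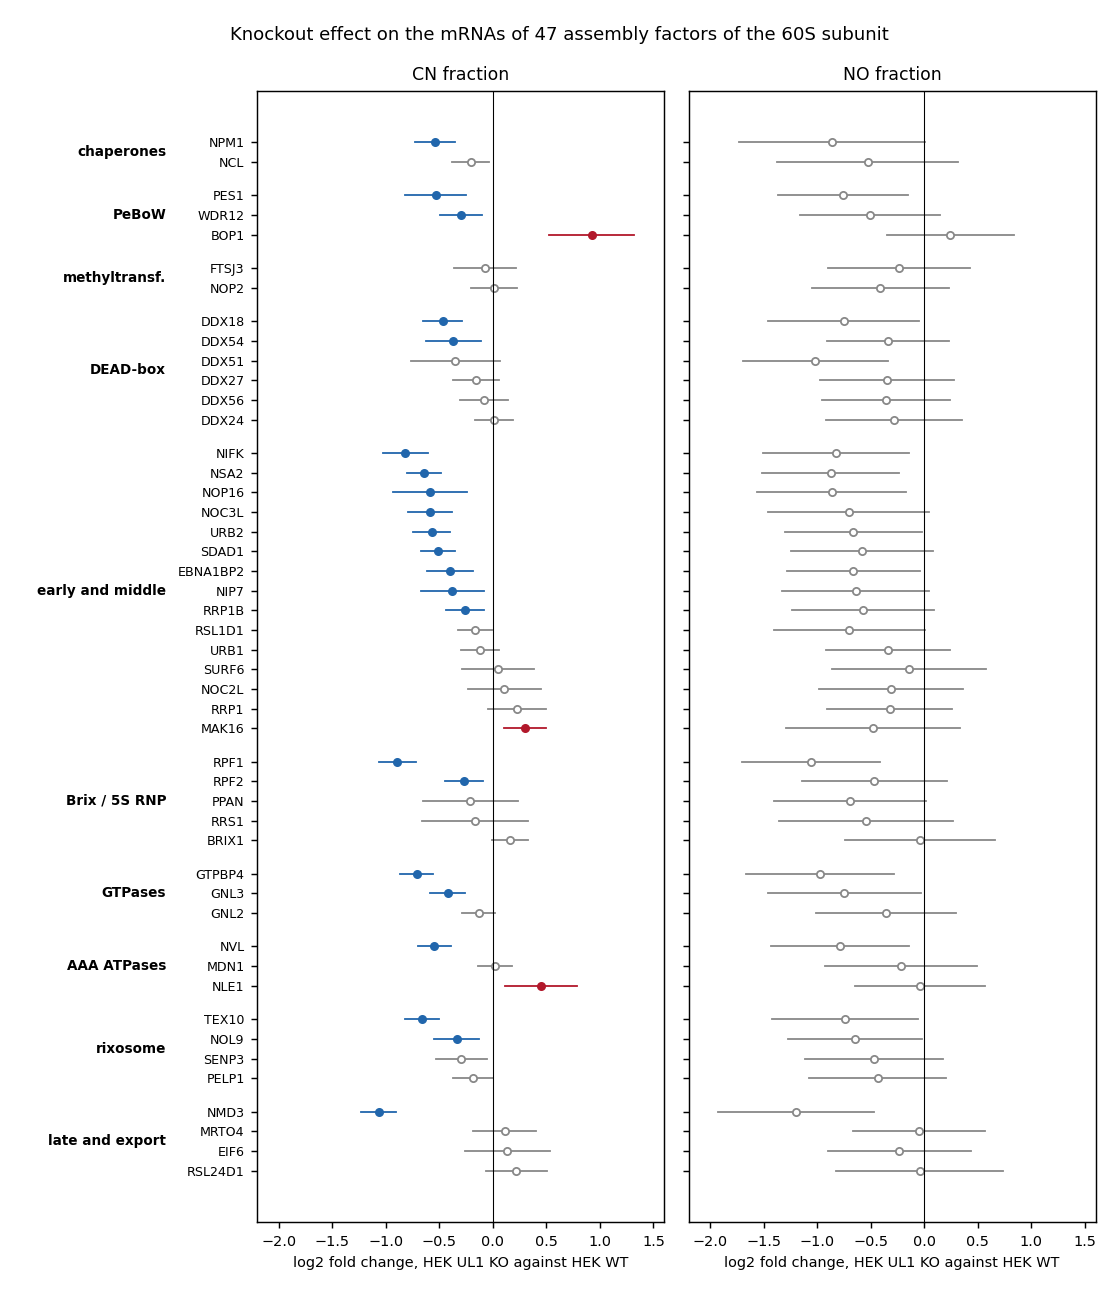
Log2 fold change of each member in HEK UL1 KO against HEK WT, in CN (left) and NO (right), grouped by role. Points are edgeR estimates, lines are 95% intervals, filled blue or red points are members called lower or higher at an adjusted p under 0.05, and open grey points were not called. In CN, 22 members are blue and 3 are red; in NO, 46 of 47 estimates lie below 0 with wide intervals and none is filled.

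Of the 5 factors of the Brix-domain and 5S docking group, RPF1 and RPF2 fell. RPF1, a Brix-domain protein of the nucleolar precursor (chromosome 1 from 84479266 to 84498352), stood at 8.18, 7.73 and 7.72 CPM in HEK WT and at 4.15, 4.27 and 4.32 CPM in HEK UL1 KO, so every knockout library lay far below the HEK WT range. Its log2 fold change was -0.89 ± 0.08 (adjusted p = 1.47e-05). RPF2, which with RRS1 brings in the 5S particle, fell by 0.27 on the log2 scale. RRS1 had -0.16 and PPAN -0.21, and neither was called. BRIX1 lay above the HEK WT range in every knockout library, at 8.33, 8.88 and 8.62 against 8.03, 7.28 and 7.80 CPM, but its log2 fold change of 0.16 ± 0.08 did not pass (adjusted p = 0.118).

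All 3 nucleolar GTPases had values below 0. GTPBP4, which checks the maturing peptidyl transferase region (chromosome 10 from 988434 to 1019932), stood at 17.9, 17.2 and 16.8 CPM in HEK WT and 10.999, 10.4 and 10.3 CPM in HEK UL1 KO. It fell by 0.71 on the log2 scale (SE 0.07, adjusted p = 2.82e-05). GNL3 fell by 0.42 (adjusted p = 0.00125), from 27.3 ± 1.78 to 20.4 ± 0.468 CPM (SD, n = 3). GNL2, at 14.2 ± 0.872 and 13.0 ± 0.177 CPM, had -0.13 ± 0.07 and was not called (adjusted p = 0.163), although its groups did not overlap.

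Of the 15 early and middle nucleolar factors, 9 fell, 1 rose and 5 were not called. NIFK, a nucleolar partner of the Ki-67 protein (chromosome 2 from 121726945 to 121736875), stood at 11.1, 9.51 and 12.1 CPM in HEK WT and at 6.31, 6.23 and 6.07 CPM in HEK UL1 KO. The lowest HEK WT library was above the highest knockout library, and the log2 fold change was -0.82 ± 0.10 (adjusted p = 9.39e-05). NSA2, a factor of nucleolar and nuclear precursors, went from 11.3 ± 0.614 to 7.27 ± 0.0455 CPM (log2 fold change -0.64, adjusted p = 8.57e-05), and its pseudogene entries held 26.6% as many counts as the gene. NOC3L, of the NOC complexes, fell by 0.59, as did NOP16, and URB2 fell by 0.57 (adjusted p = 0.000643, 0.0141 and 0.000265). SDAD1, EBNA1BP2, NIP7 and RRP1B were lower by smaller amounts, with log2 fold changes of -0.51, -0.40, -0.38 and -0.26 (adjusted p = 0.0258 for RRP1B), and the calls of NIP7 and RRP1B did not hold in most of the other fits. MAK16 rose from 4.85, 4.46 and 5.29 to 6.07, 5.98 and 5.92 CPM, a log2 fold change of 0.30 ± 0.09 (adjusted p = 0.0224). RRP1 had 0.23, NOC2L 0.11, SURF6 0.05, URB1 -0.12 and RSL1D1 -0.16, without a call.

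The PeBoW complex, which is needed for cutting the precursor between the 5.8S and 28S parts, was split. PES1 went from 3.19, 3.42 and 4.06 CPM to 2.24, 2.37 and 2.78 CPM (log2 fold change -0.53 ± 0.13, adjusted p = 0.00837), and WDR12 fell by 0.29 (adjusted p = 0.0236). BOP1, on chromosome 8 from 144262045 to 144291438, rose instead, from 1.34, 1.34 and 1.55 CPM to 2.35, 2.24 and 3.49 CPM. Its groups did not overlap, and its log2 fold change of 0.93 ± 0.18 was the largest rise among the members (adjusted p = 0.00234). A second entry of BOP1 held 52.3% as many counts as the first, so the count of BOP1 may share reads with it.

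The nucleolar chaperones were lower in every knockout library. NPM1 stood at 178, 156 and 162 CPM in HEK WT and at 114, 113 and 113 CPM in HEK UL1 KO (log2 fold change -0.54 ± 0.08, adjusted p = 0.000618). Its 50 pseudogene entries together held 111% of its own counts, and with all pseudogene counts added to their parent genes NPM1 was still called lower. NCL, at 107 ± 4.62 and 92.5 ± 2.87 CPM, had -0.21 ± 0.08 and missed the threshold (adjusted p = 0.0562).

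Among the ATPases, NVL, which releases factors from the precursor, went from 23.6, 24.7 and 23.7 to 17.0, 16.9 and 15.4 CPM (log2 fold change -0.54 ± 0.07, adjusted p = 0.000198). MDN1, the very large ATPase that strips factors off the particle, had 0.02, at 41.4 ± 1.91 and 41.9 ± 1.26 CPM. NLE1, the protein on which MDN1 pulls, rose from 1.82, 1.57 and 1.66 to 2.06, 2.77 and 2.04 CPM (log2 fold change 0.45 ± 0.15, adjusted p = 0.0376). So the ATPase group held 1 fall, 1 rise and 1 gene near 0.

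The rixosome is the complex that removes the spacer between the 5.8S and 28S parts, and 4 of its subunits or partners are members. All 4 had every knockout library below every HEK WT library. TEX10 went from 20.5, 20.1 and 19.0 to 12.6, 13.2 and 11.9 CPM (log2 fold change -0.66 ± 0.07, adjusted p = 6.27e-05). NOL9, its polynucleotide kinase, fell by 0.34. SENP3, the SUMO protease, and PELP1, the scaffold, had -0.29 and -0.18 and were not called. LAS1L, the endonuclease of the complex, and WDR18, a further subunit, are not members, and their values of 0.21 and 0.10 lay on the other side of 0, without a call and with overlapping groups. Of the 6 DEAD-box helicases, DDX18 fell by 0.47 and DDX54 by 0.37. DDX51, DDX27, DDX56 and DDX24 had -0.35, -0.16, -0.08 and 0.01, and neither of the rRNA methyltransferases was called, NOP2 with 0.01 and FTSJ3 with -0.07.

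**Figure D2:**
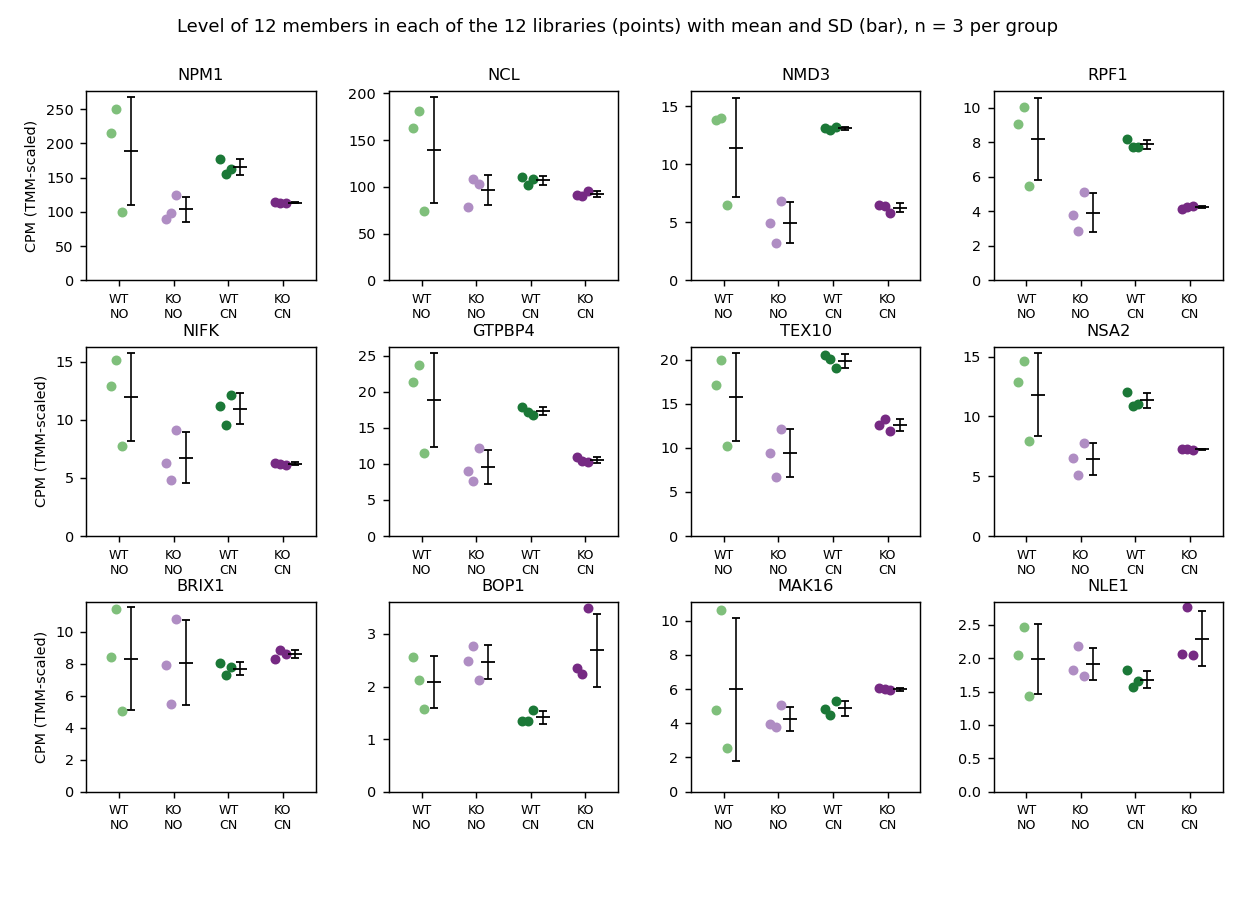
CPM of 12 members in each of the 12 libraries (points), with the group mean and SD (bars, n = 3); CPM were scaled by TMM within each fraction, so NO and CN are not on a common scale. In CN the genotypes separate for all members shown; in NO the third HEK WT library lies low for NPM1, NCL and NMD3, and the genotypes overlap for all members shown but RPF1 and NSA2.

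RefSeq places another gene over several members, such as INVS over TEX10, TTI2 over MAK16, GNG5 over RPF1, IDI2 over GTPBP4 and SCX over BOP1, and SENP3 shares exons with the read-through gene SENP3-EIF4A1. The strand setting of the counts was not given, so reads of such pairs cannot be told apart. The calls depended on how the libraries were scaled. NMD3, RPF1, NIFK, GTPBP4 and BOP1 kept their calls under each of the 15 alternatives that were run, with log2 fold changes between -1.42 and -0.86 for NMD3 and between 0.57 and 1.15 for BOP1. With total counts in place of TMM, the median of all genes moved to 0.24 and the members' median to -0.05, which is 0.29 below that of all genes. In that fit 4 members were called lower and 3 higher. The share of all genes called in it is not given here, so these counts are not read as a result about the members. With GAPDH as the reference, the median of all genes moved to -0.31 and MAK16 changed sign to -0.04, so the rise of MAK16 does not hold on every scale. GAPDH itself was called higher in CN of HEK UL1 KO with TMM (log2 fold change 0.34, edgeR's test, adjusted p = 0.0275). The calls of NIP7 and RRP1B were lost in 10 of the 15 alternatives, those of NLE1 and MAK16 in 9, those of DDX54 and RPF2 in 8 and that of WDR12 in 7. Under DESeq2, NIP7, MAK16 and NLE1 were not called.

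Other genes of the pathway, from a list that does not share a gene with the members, were counted in the same fits. Of 37 such 60S genes found in the tables, 20 were called lower and 2 higher in CN, with a median log2 fold change of -0.29. In the same fit, 22.3% of all genes were called lower and 15.6% higher, with a median of 0.04. For protein-coding genes the shares were 28.5% and 16.1%, and the median was -0.04. RPL5, a ribosomal protein of the 5S particle, had -0.71 and was called lower, whereas RPL11, its partner, had -0.09 and was not called. WDR74 had the lowest value, -1.28, but it was read at 1267 CPM in CN of HEK WT, far above NPM1, and GENCODE places the U2 small nuclear RNA gene RNU2-2P over one of its exons on the same strand, so whether this count is that of the mRNA was not tested.

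In CN, the change of a member went with the change of the genes around it on the chromosome. For each member, the median log2 fold change was taken over the protein-coding genes within 5 Mb on each side, members left out. Across the 47 members, the correlation between a member's log2 fold change and this median was 0.777 (Pearson) and 0.694 (Spearman), given as a description since neighbouring windows share genes and all values come from the same 6 libraries. Windows of 2 and 10 Mb gave 0.797 and 0.778. Around NMD3, the median of 24 neighbours was -0.78, and 15 of them were called lower. Around BOP1, the median of 72 neighbours was 0.74, and 48 were called higher.

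Several members did as their surroundings did. NVL and URB2, both on the long arm of chromosome 1, had neighbour medians of -0.59 and -0.54 beside their own -0.54 and -0.57. NSA2 had -0.61 beside -0.64, and NLE1 had 0.28 beside 0.45. Of the 22 members that fell, 17 had a neighbour median below 0. The median of the neighbour medians was -0.27 for the members that fell, 0.02 for those not called and -0.02 for all 47. NIFK was a member that did not follow, at -0.82 with a neighbour median of 0.04 over 21 genes. DDX18 had -0.47 beside 0.08, NOL9 -0.34 beside 0.07 and GTPBP4 -0.71 beside -0.19, so these fell further than the genes around them. NOP2 had a neighbour median of 0.48 and a value of its own of 0.01. Taken member by member, the difference from the neighbours had a median of -0.135, and 37 of the 47 members lay below their neighbours. What part the chromosomal position had in the results was not tested.

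**Figure D3:**
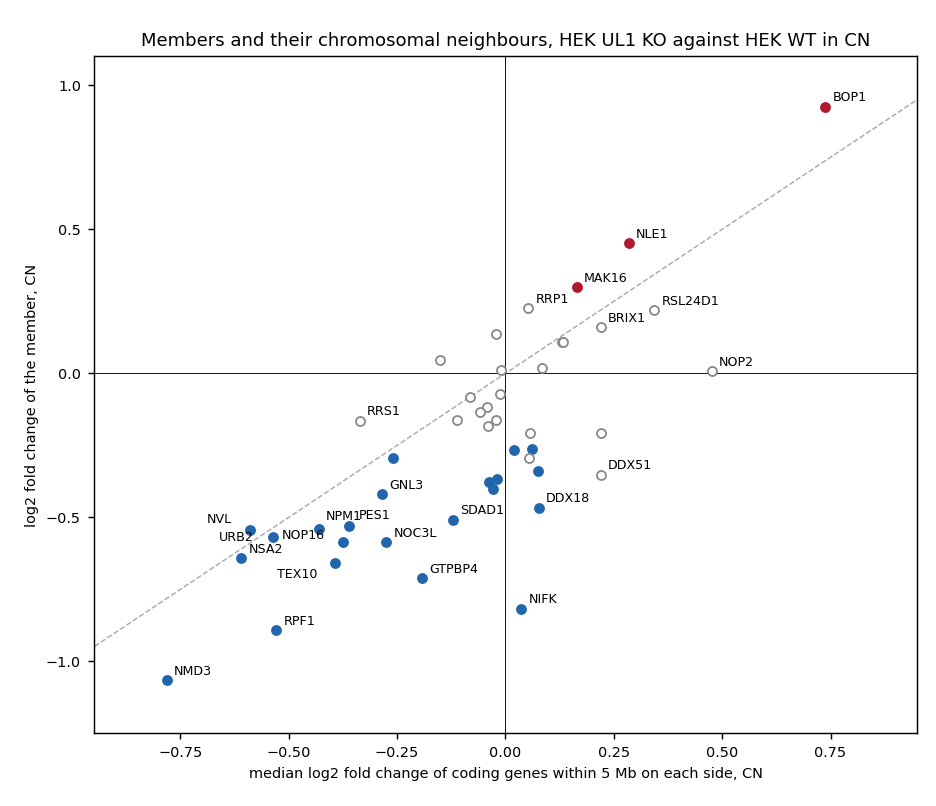
Log2 fold change of each member in CN (vertical) against the median log2 fold change of the protein-coding genes within 5 Mb on each side (horizontal), HEK UL1 KO against HEK WT. The dashed line marks equal values, filled blue and red points are members called lower and higher, open points were not called; NMD3 and BOP1 lie at opposite ends near the line, and NIFK lies far below it.

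In the NO fraction, no member passed edgeR's test over the 6 NO libraries. Of the 47 members, 0 were called higher and 0 lower over 34836 genes, where 0.365% and 0.574% of all genes were called, and 15 members had an unadjusted p under 0.05, all of them lower. DESeq2 called 2 lower and 0 higher, no filter gave 2 lower, a single fit of all 12 libraries gave 5 lower, and U3 as the reference gave 1 higher. The shares of all genes called in those other fits are not given here, so these counts are not read as a result about the members. The estimates still lay on one side, since 46 of the 47 log2 fold changes were below 0, with a median of -0.53, where 49.7% of all genes tested and 59% of protein-coding genes were below 0. The median of the protein-coding genes was -0.12. Without the third HEK WT library, 27 members were called lower, in a fit that called 5546 genes lower and 3587 higher in all. With total counts in place of TMM, the median of all genes moved to 0.40 and the members' median to 0.05, with 23 of 47 below 0. U3 itself (SNORD3A) had a log2 fold change of -0.80 with TMM and was not called, although its groups did not overlap. With U3 as the reference, the medians of all genes and of the members were 0.83 and 0.35. The members' median therefore changed its sign with the scale, while it stayed 0.30 to 0.92 below the median of all genes in all 17 fits.

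NMD3 again had the lowest value in NO, with 13.8, 14.0 and 6.49 CPM in HEK WT and 4.90, 3.22 and 6.82 CPM in HEK UL1 KO. Only the third HEK WT library fell inside the knockout range, and the log2 fold change was -1.19 ± 0.35 (adjusted p = 0.109). RPF1, at 9.02, 10.0 and 5.49 against 3.79, 2.87 and 5.11 CPM, did not overlap between the genotypes (log2 fold change -1.06 ± 0.31, adjusted p = 0.11). GTPBP4 had -0.97 ± 0.33 (adjusted p = 0.164) and DDX51 -1.02. Knockout libraries lay below all HEK WT libraries for 5 members, DDX51, NSA2, NVL, RPF1 and URB1, and above for 0, against 9.17% and 11% of all genes. The first 4 of these also did not overlap in CN. There 28 members lay below all HEK WT libraries, as did 28.1% of all genes. The share of all genes that did so in both fractions was not computed. The 5 members in NO are near the share of all genes, so the counts of 5 and 4 are not read as a result about the members.

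BOP1 was the member with a value above 0 in NO, at 0.24 ± 0.28 (adjusted p = 0.671). NPM1, at 215, 251 and 100.4 CPM in HEK WT and 89.0, 99.0 and 124 CPM in HEK UL1 KO, had -0.86 ± 0.41 (adjusted p = 0.317). NCL had -0.53, PES1 -0.76, WDR12 -0.50, GNL3 -0.75, GNL2 -0.36, RRP1B -0.57, EIF6 -0.23 and BRIX1 -0.04, and all of these groups overlapped. In all, 34 members had values below 0 in both fractions. The number below 0 in CN alone was also 34, since BOP1, the exception in NO, was above 0 in CN too. The joint count is therefore no measure of agreement between the fractions.

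Whether the knockout effect differed between the fractions was tested as an interaction over the 12 libraries. None of the 47 members was called (edgeR, 0 higher and 0 lower, 0 at an unadjusted p under 0.05), where 0.0846% of 37806 genes were called higher and 0.0291% lower. The differences ran from -0.60 for MAK16 (95% interval -1.54 to 0.34) to 0.18 for DDX54 (95% interval -0.38 to 0.73). With intervals of this width, differences of moderate size were not detectable.

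Relative to the other genes, 14 of the 47 members were called lower in NO than in CN in HEK WT, and 46 were in HEK UL1 KO. These 2 counts come from separate fits and do not test a difference between the lines. The interaction, which tests that difference, called none of the members, and their median in it was -0.09, with -0.06 for all genes. In HEK WT, 1 member was called higher and 32 were not called, over 29340 genes with 20.9% of all genes called lower and 31.9% higher, and the members' median was -0.37. Among protein-coding genes 30.3% were called lower, which is close to the share of the members. The count of members called lower moved to 31 without NO replicate 2 and to 6, 8 and 6 without CN replicates 1, 2 and 3. The shares of all genes called in those fits are not given here, so these shifts are not read as a result about the members. In HEK UL1 KO, 1 was called higher and 0 were without a call over 34468 genes, with 35.6% called lower and 40.7% higher, and the median was -0.77. Among protein-coding genes 49.9% were called lower there. These directions rest on TMM. With total counts, the median of all genes moved to 0.37 in HEK WT and 0.79 in HEK UL1 KO, and the members' medians were -0.10 and -0.02. No member was then called lower in either line (0 by edgeR, with 2 of 47 at an unadjusted p under 0.05 in each line). The shares of all genes called with total counts are not given here either. Protein-coding genes as a whole had medians of -0.23 and -0.45 in the 2 lines. Mitochondrially encoded genes took 9.03 to 17.1% of counts in NO and 2.39 to 4.21% in CN, and their part in these values was not tested.

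TEX10 was the lowest in HEK WT, with a log2 fold change of -0.83 ± 0.18 (adjusted p = 0.00554), followed by URB2 at -0.75, NIP7 at -0.72, NMD3 at -0.70 and NOL9 at -0.70. The 4 rixosome genes among the members were called lower there, with values from -0.83 to -0.61, while LAS1L and WDR18 had -0.27 and -0.0063 and were not called (adjusted p = 0.35 and 0.987). In HEK UL1 KO, RRS1, NOL9, NIP7, RRP1B and MAK16 were the lowest, from -1.11 to -1.09, with adjusted p = 0.00366 for RRS1 and 9.55e-05 for NOL9. The same 4 rixosome genes were lower in that line too, and so was LAS1L at -0.76, but WDR18 at -0.49 was not called (adjusted p = 0.152).

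PPAN, a Brix-domain factor, was the member called higher in NO, by 1.44 ± 0.25 on the log2 scale in HEK WT (adjusted p = 0.00408) and by 0.80 ± 0.30 in HEK UL1 KO (adjusted p = 0.0297), where the groups overlapped and the call was lost without NO replicate 2 or any CN library of that line. The read-through entry PPAN-P2RY11, which overlaps PPAN, held 124% as many counts as PPAN. It was also called higher in NO of HEK WT (log2 fold change 1.16, edgeR's test, adjusted p = 0.00553). In HEK UL1 KO it had 0.54 and was not called (adjusted p = 0.123). How many reads the 2 entries share was not tested. PPAN hosts the small nucleolar RNAs SNORD105 and SNORD105B. PPAN was counted 147, 96 and 142 times in NO of HEK WT and 173, 126 and 48 times in NO of HEK UL1 KO, and the summed counts of both snoRNAs in the same libraries were 119, 54, 110, 111, 86 and 32. In CN, PPAN had 42 to 77 counts and the snoRNAs 1 to 8. With the snoRNA counts subtracted, an alternative chosen after the data had been seen, PPAN was at -0.31 in HEK WT (adjusted p = 0.462) and at -0.72 in HEK UL1 KO (adjusted p = 0.0376), on the side of the other members. GENCODE places both snoRNAs outside the exons of PPAN, the annotation used for the counts was not named, and whether reads of the snoRNAs entered the count of PPAN was not tested.

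**Figure D4:**
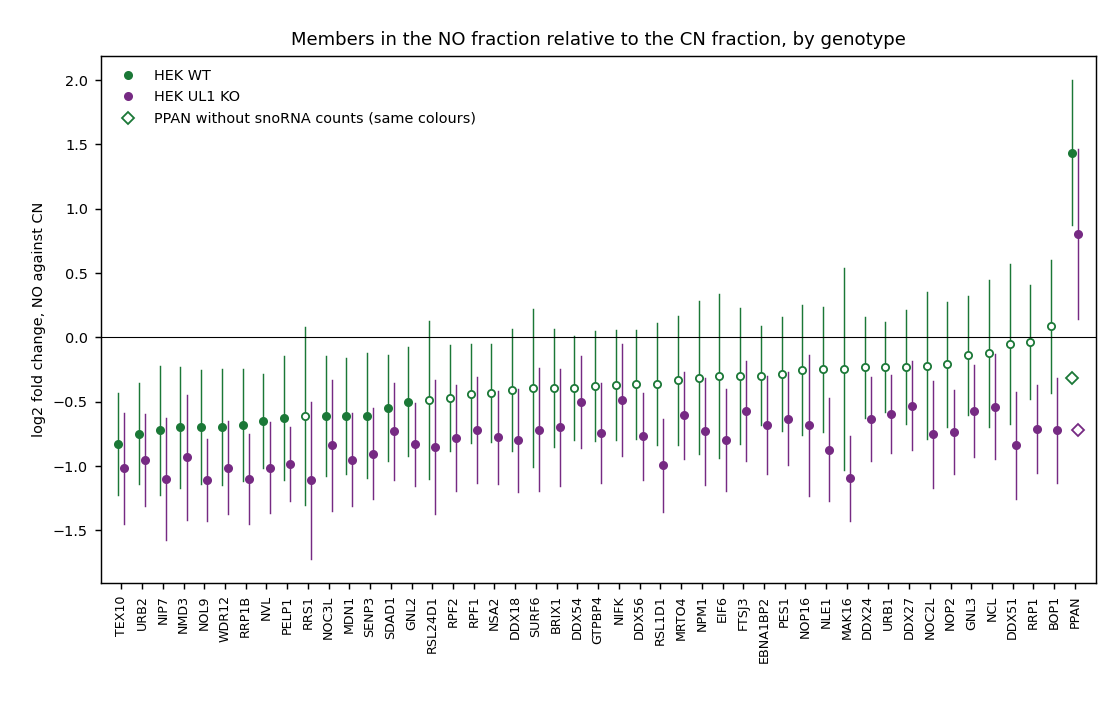
Log2 fold change of each member in NO against CN, in HEK WT (green) and HEK UL1 KO (purple), ordered by the HEK WT value. Points are edgeR estimates with 95% intervals, filled when called at an adjusted p under 0.05; diamonds give PPAN with the counts of its snoRNAs subtracted, which brings it from 1.44 to -0.31 and from 0.80 to -0.72.

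The promoters of the members were read from RefSeq (GRCh38.p14), as 250 bases before and 50 bases from the start of each gene, and 39 of the 47 members matched. The letters CACGTG, the E-box bound by MYC and related factors and the same on both strands, were in 13 of the 39 (33.3%), against 7.26% of 35116 promoters in the table and 8.34% of 22199 promoters of protein-coding genes. The core of the site of NRF1, CGCATGCG, also a palindrome, was in 1 of 39 (2.56%), that of DDX27, against 2.02% of all. Of the members that fell in CN and had a promoter sequence, 6 of 18 held the E-box, as did 6 of the 20 that were not called and the 1 that rose, NLE1. In 7 members the E-box lay before the start, and 60 bases around it are given for these to show its place, in the direction of the gene and with the E-box in capitals.

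The first 4 fell in CN. TEX10 has its E-box 30 bases before the start (chr9:100352943-100353002, minus strand), DDX54 at 61 (chr12:113185507-113185566, minus), SDAD1 at 228 (chr4:75991136-75991195, minus) and EBNA1BP2 at 237 bases (chr1:43172761-43172820, minus). MDN1, SURF6 and PELP1 were not called, and theirs lie 155, 224 and 242 bases before the start (chr6:89819917-89819976, chr9:133336379-133336438 and chr17:4704328-4704387, all minus). The position and the letters next to the E-box differed among the genes, and a match is not evidence of binding.
TEX10: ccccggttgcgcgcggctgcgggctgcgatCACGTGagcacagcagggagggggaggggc
DDX54: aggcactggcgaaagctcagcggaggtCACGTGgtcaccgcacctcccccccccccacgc
SDAD1: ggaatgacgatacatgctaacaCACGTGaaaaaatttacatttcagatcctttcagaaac
EBNA1BP2: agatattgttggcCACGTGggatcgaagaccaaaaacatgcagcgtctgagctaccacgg
MDN1: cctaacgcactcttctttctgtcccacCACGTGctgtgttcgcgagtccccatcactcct
SURF6: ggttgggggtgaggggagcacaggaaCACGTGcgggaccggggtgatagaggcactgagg
PELP1: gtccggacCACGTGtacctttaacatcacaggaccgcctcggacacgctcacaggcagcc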

How the data were processed

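The authors made the libraries from RNA of the NO and CN fractions without rRNA depletion, trimmed reads with Cutadapt 3.7, aligned them to GRCh38 with STAR 2.7.8, keeping reads with several alignments up to a limit, and counted them per gene with featureCounts. They deposited raw counts, 1 table per fraction; the strand and multi-mapping settings of the counting and the annotation were not given in the sources used here. DDX24 and a second entry of it had identical counts in 12 of 12 libraries, so some reads were counted at more than one entry, and values of members with copies are uncertain. All 12 columns were matched to samples by their labels.

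Counts were tested with edgeR 4.0.16 (R 4.3.3; quasi-likelihood F test, filterByExpr with a minimum count of 10 and total of 15, TMM, Benjamini-Hochberg adjustment over all genes tested, called under 0.05), and DESeq2 1.42.0 was an alternative. The edgeR method was run on simulated data with planted log2 changes of 2 only. These are larger than the changes of the members, so changes of the members' size were not covered. Within a fraction the 2 lines were compared, within a line the 2 fractions, and the interaction over all 12 libraries. Positions and promoters came from RefSeq and exon lengths from GENCODE. Other alternatives were total counts, TMM without rRNA genes, scaling to U3 (NO) or GAPDH (CN) as 1 reference gene, no filter, at least 10 counts in every library, 1 fit of all 12 libraries, a replicate block, pseudogene counts added and leaving out each library. Test values are named for the called members, up to 12 rises and 12 falls per fraction, for the 5 highest and 5 lowest called between fractions, and for 12 members set by name. The members and lists were chosen with earlier results of these data known. Other 60S genes listed under newer symbols (AFG2A, AFG2B, AIRIM) were not found in the tables. No 2 libraries of a group were alike within sampling noise (chi-square per gene at least 17.1), and p-values measure the spread between these samples.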

Additional observations from a re-analysis of the deposited data

How the results depend on the processing

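Of the 25 members called in CN, 22 kept their call under DESeq2, 25 with TMM without rRNA genes, 7 with total counts, 6 in 1 fit of all 12 libraries and 17 to 21 when a library was left out. In NO, members called lower numbered 2 under DESeq2, 2 with no filter, 5 in the fit of all 12 libraries, 10 without HEK WT replicate 3 and HEK UL1 KO replicate 1 together (chosen after seeing the data), and 0 to 27 when 1 library was left out, 27 being without HEK WT replicate 3. With U3 as the reference, 1 was called higher in NO and the members' median was 0.353, and with total counts it was 0.0537. In CN, members called higher numbered 1 under DESeq2, with GAPDH as the reference, with no filter and in the fit of all 12 libraries, and 1 to 3 when a library was left out, with 1 without HEK WT replicate 2 or HEK UL1 KO replicate 1 or 2. Members called lower in CN numbered 4 with total counts and 5 in the fit of all 12 libraries. The CN median was -0.33 under DESeq2, -0.0489 with total counts, -0.603 with GAPDH, -0.183 with at least 10 counts in every library, -0.347 in the fit of all 12 libraries, and -0.296 to -0.157 when a library was left out, and MAK16 reversed to -0.0436 with GAPDH. For NO against CN in HEK WT, members called lower numbered 25 under DESeq2, 0 with total counts, 8 with TMM without rRNA genes, 23 with no filter, 5 with at least 10 counts in every library, 33 in the fit of all 12 libraries and 6 to 31 when a library was left out (31 without NO replicate 2; 6, 8 and 6 without CN replicates 1, 2 and 3), and the median was -0.626 under DESeq2, -0.0993 with total counts and -0.691 to -0.205 when a library was left out. In HEK UL1 KO, members called higher numbered 0 under DESeq2 and 0 to 1 when a library was left out (0 without NO replicate 2 or any CN library), members called lower numbered 0 with total counts and 13 with at least 10 counts in every library, and the median was -0.932 under DESeq2, -0.0186 with total counts, -0.937 with no filter, -0.338 with at least 10 counts in every library and -1.02 to -0.633 when a library was left out. With snoRNA counts subtracted, PPAN in NO against CN reversed to -0.314 in HEK WT and -0.717 in HEK UL1 KO. Same-numbered libraries deviated apart rather than together (correlations of -0.48 to -0.04). With 3 libraries per group, such correlations cannot show whether same-numbered libraries came from 1 culture. The main tests did not pair them. With a replicate block, 20 members were called lower in CN, 0 in NO, and 6 in NO against CN of HEK WT. The counts of members called are given here without the share of all genes called in the same fit. The causes of the shifts between fits were not tested. Low counts limit RRS1, with 13 to 70 counts per library, and DDX51, with 32 to 117.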
